A study of Rattus norvegicus with 49 samples.

Results

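Brown adipocytes burn fat to make heat. Their mitochondria carry uncoupling protein 1, which lets protons back across the inner membrane without making ATP, and the fuel for this comes from lipid droplets and from fatty acids taken up and bound in the cytosol. The cells share much of their transcriptional programme with skeletal muscle, and in the rat brown fat forms depots in the neck among other places. The 8 genes described here, in thyroid samples of rats, are the uncoupling protein Ucp1, the lipid droplet protein Cidea, the fatty acid elongase Elovl3, the cytochrome c oxidase subunits Cox8b and Cox7a1, the fatty acid binding protein Fabp3, the coactivator of mitochondrial genes Ppargc1a and the transcriptional regulator Prdm16. They were chosen by name, as genes known from brown adipocytes, when earlier results of these data were known. Of the 8 genes, 6 had a matched probe on the array, with 2 probes for Cidea, among 15154 gene symbols in all, and no probe was matched to Cox7a1 or Prdm16.

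Each of 49 one-colour arrays was labelled as thyroid RNA of 1 male Sprague Dawley rat. Exposed rats had been injected with 131I, a radioactive iodine that the thyroid takes up. Young rats, injected at 5 weeks of age, received 0.5, 5, 50 or 500 kBq and were killed after 9 months, or received 50 kBq and were killed after 3 or 6 months. Adult rats, injected at 17 weeks, received 50 kBq and were killed after 3, 6 or 9 months, and untreated controls were 4, 7, 10 and 13 months old. There were 13 groups of 4 arrays, apart from the 5 kBq group and the 7-month and 13-month controls, which had 3. Levels are given as the log2 of the signal minus the 75th percentile of all probes of the same array, so that 0 is a bright probe and a step of 1 is a doubling. Levels of different probes are not on a common scale and were not set against each other.

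Some arrays stood apart. Replicate 2 of the young 50 kBq group at 3 months had 43.1% of its spots well above background, against 69.2% to 82.5% on the others. In replicate 3 of the same group and replicate 2 of the 7-month controls, follicular thyrocyte genes were low, which goes against the labelled tissue. The mean log2 signal of 13 thyrocyte genes was -4.43 and -5.23 there, and at least -0.27 on every other array. Thyroglobulin (Tg), the precursor of thyroid hormone, read 0.13 and -0.70 on these arrays, and 6.41 to 10.9 on the other 47. In addition, replicates 1 and 2 of the adult 50 kBq group at 6 months, and replicates 1 and 2 of the 13-month controls, differed far less than any other pair of arrays. Nothing in the labels says that these were the same RNA. Each pair was averaged and counted as 1 sample in means, SDs and tests, which left 47 samples and 2 for the 13-month controls. A tissue sample mixes cell types, and fewer cells of a type cannot be told apart from less RNA per cell.

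The promoters of 3 members are shown because their genes stand for the patterns described below, Ucp1 for the first and Cox8b and Fabp3 for the second. Each is the 250 bases before the transcript start in RefSeq, build GRCr8, read 5′ to 3′ on the strand of the gene, with searched motifs in capitals. They lie at chr19:41721422-41721671 (minus strand), chr1:205408274-205408523 (minus strand) and chr5:147935875-147936124 (plus strand).
Ucp1: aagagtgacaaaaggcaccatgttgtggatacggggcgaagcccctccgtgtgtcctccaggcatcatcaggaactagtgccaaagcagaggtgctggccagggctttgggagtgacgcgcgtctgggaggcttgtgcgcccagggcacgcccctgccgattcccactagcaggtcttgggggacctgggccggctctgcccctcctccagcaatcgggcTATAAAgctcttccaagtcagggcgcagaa
Cox8b: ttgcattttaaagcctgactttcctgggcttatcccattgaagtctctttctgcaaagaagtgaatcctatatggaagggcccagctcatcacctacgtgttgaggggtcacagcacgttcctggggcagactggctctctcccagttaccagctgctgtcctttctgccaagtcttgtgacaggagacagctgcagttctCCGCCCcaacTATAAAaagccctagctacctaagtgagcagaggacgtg
Fabp3: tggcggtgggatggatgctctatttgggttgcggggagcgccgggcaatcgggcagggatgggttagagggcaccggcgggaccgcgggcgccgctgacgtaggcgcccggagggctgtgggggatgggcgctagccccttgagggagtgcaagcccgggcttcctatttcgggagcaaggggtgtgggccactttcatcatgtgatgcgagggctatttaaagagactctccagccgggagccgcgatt

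The motifs searched were the TATA box (letters TATAAA), a box named for its letters CCAAT, and the binding site of the factor Sp1, here called the GC box (letters GGGCGG). Nuclear signalling sites were the cAMP response element (letters TGACGTCA), the PPAR element, which is a direct repeat bound by PPAR receptors, and the site of the estrogen-related receptors (letters TCAAGGTCA). The E box (letters CACGTG) was the last, and both strands were read. A TATA box stood at -30 in Ucp1 and at -39 in Cox8b, counted from the transcript start, and 12.9% of 33469 rat promoters held one in the same window. Cox8b also had a GC box at -49, a motif held by 30.5% of promoters. Fabp3 had none of these letters, and part of its window overlaps the annotated gene span. Of the members not printed, Ppargc1a had a cAMP response element at -181, which 1.59% of promoters held, Cidea had a GC box at -57, and Elovl3 had 2 GC boxes and 2 CCAAT boxes, a motif held by 34% of promoters. The PPAR element, in 0.051% of promoters, and the element of the estrogen-related receptors, in 0.388%, were in the window of none of the 6 measured members.

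Ucp1, the gene that defines the brown adipocyte, gave a signal well above background throughout the 49 arrays. The log2 values ranged from -1.10 to 6.76, with a median of 4.81, a 232-fold span. Much of this span was found inside single groups. In the 4-month controls the arrays read 0.35, 6.03, 3.19 and 4.35, and in young rats 9 months after 0.5 kBq they read 6.59, -1.10, 4.19 and 5.66. Each of these groups covered most of the span of the series.

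In the 7-month controls Ucp1 read 4.73, 6.76 and 4.66, in the 10-month controls 5.89, 5.32, 4.96 and 5.96, and in the 13-month controls 4.70, 4.73 and 1.43, the first 2 of them the averaged pair. The 10-month controls were the tightest of the 13 groups. Young rats given 50 kBq read 6.03, 4.42, 4.81 and 4.37 after 3 months, 1.53, 5.27, 4.93 and 5.14 after 6 months, and 6.38, 4.24, 4.36 and 6.36 after 9 months. After 9 months young rats read 5.20, 3.86 and 4.22 at 5 kBq and 3.05, 5.63, 2.00 and 4.98 at 500 kBq. None of these groups separated from the controls of its age. Adult rats read 4.01, 5.43, 4.31 and 3.29 after 3 months, 6.05, 6.13, 4.24 and 5.78 after 6 months, and 5.84, 5.77, 5.82 and 4.40 after 9 months. In the last group 3 of the 4 rats lay above both samples of the 13-month controls.

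Cidea, which enlarges lipid droplets and in rodents is a mark of brown fat, followed Ucp1 from array to array. Its brighter probe was well above background on all 49 arrays and ranged from 1.16 to 6.68. Pearson's r between Ucp1 and Cidea was 0.96 over the 49 arrays, 0.95 over the 35 exposed and 0.97 over the 14 control arrays. It was 0.96 without the 3 arrays that stood apart. The other Cidea probe gave r = 0.98 with the first. These correlations are descriptions of arrays that share a platform and a scaling.

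The 5 arrays with the lowest Ucp1 were also the 5 with the lowest Cidea, and they came from 5 groups. They were replicate 2 at 0.5 kBq, replicate 1 of the 4-month controls, replicate 3 of the 13-month controls, replicate 1 of the young 50 kBq group at 6 months and replicate 3 at 500 kBq. Cidea read 1.58, 1.16, 2.74, 1.83 and 2.00 on them, and at least 3.09 elsewhere. The other pattern did not follow on all of them. Fabp3 read 2.30, 3.30, -0.53, 1.44 and 3.72 on the same arrays, and Cox8b 5.30, 6.30, 3.84, 4.90 and 6.41. Replicate 3 of the 13-month controls was the lowest of all 49 arrays for both of these genes.

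**Figure D1:**
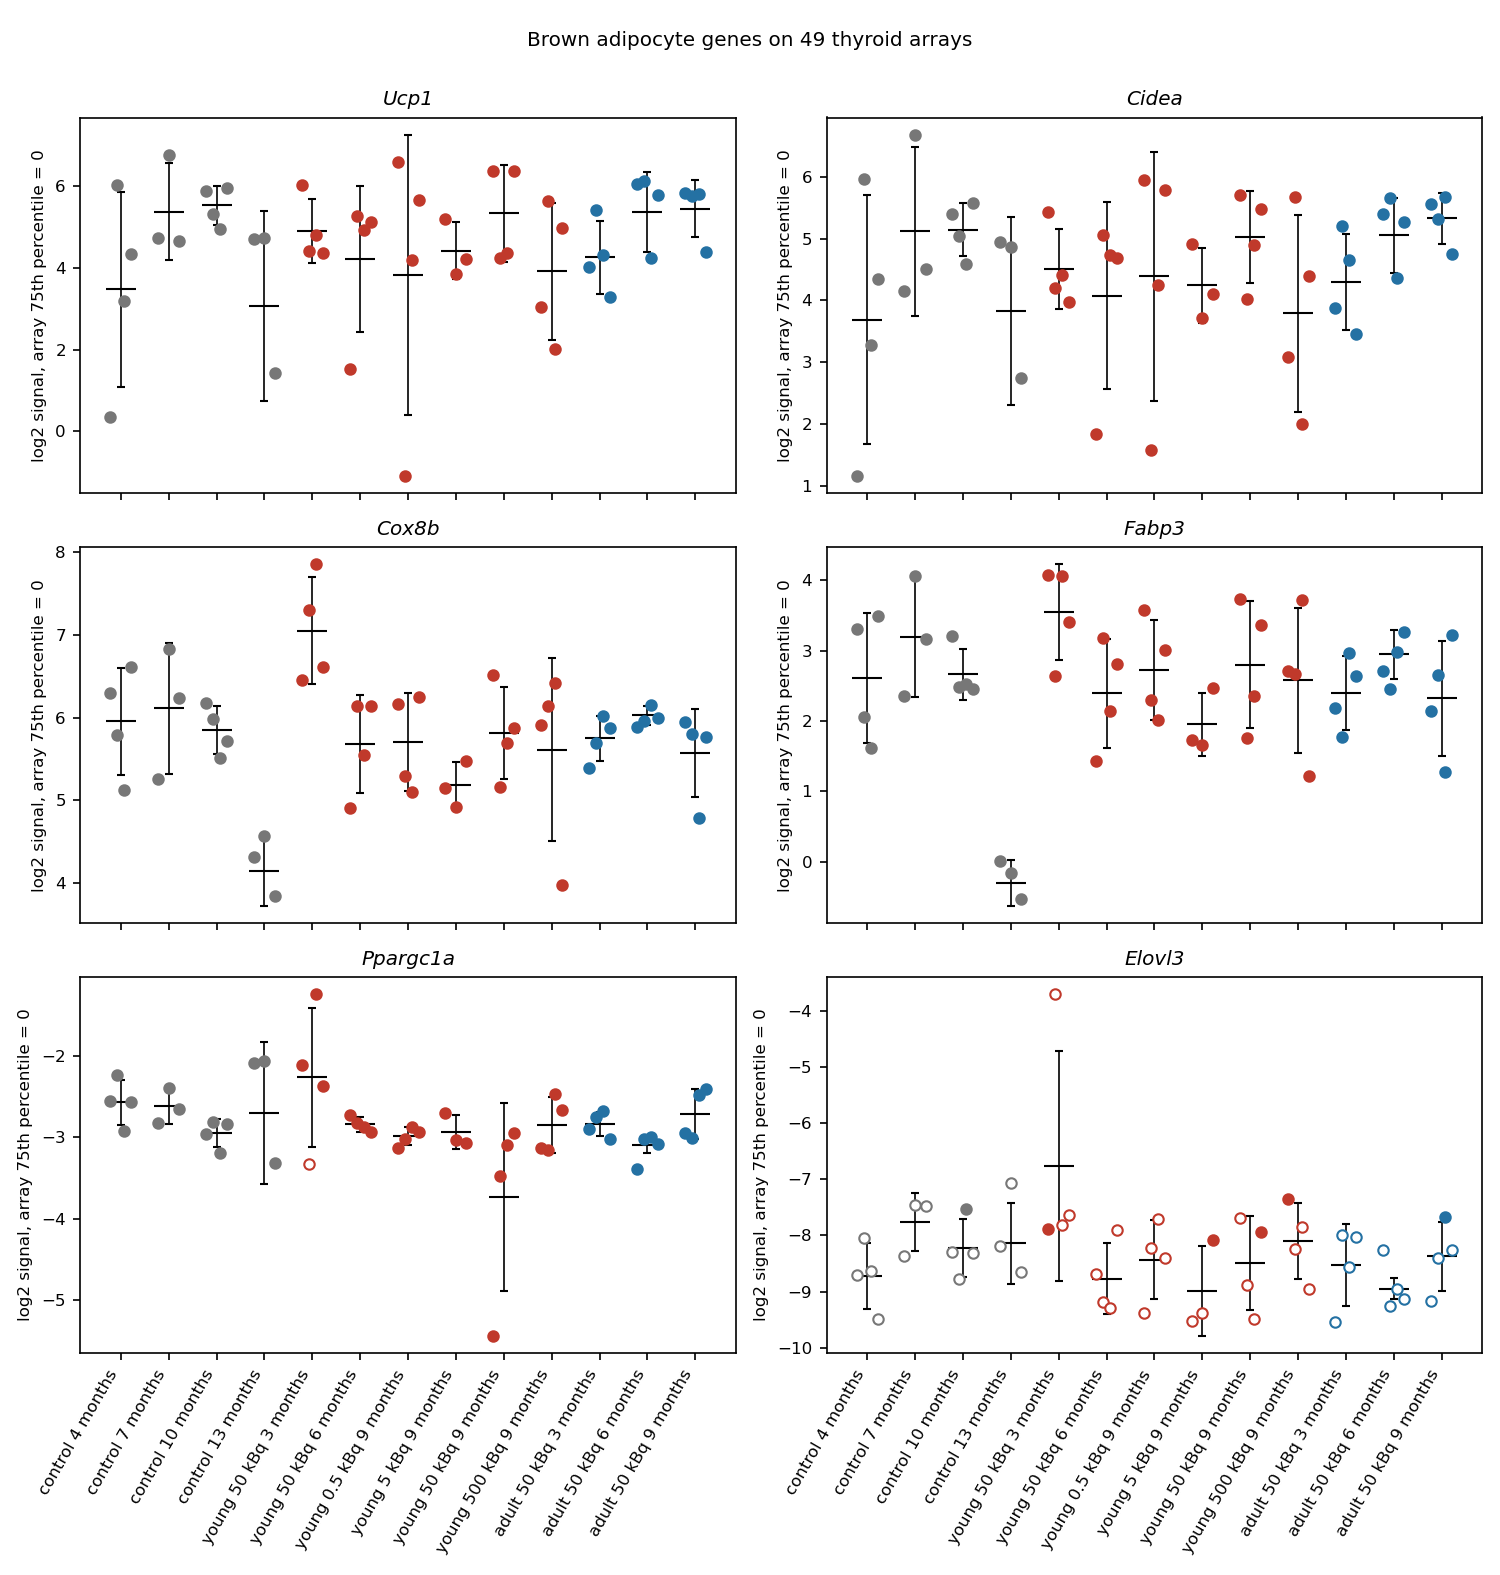
Log2 signal of 6 brown adipocyte genes (array 75th percentile = 0) on each array, by group: grey controls, red young and blue adult exposed rats, open symbols not well above background, bars the mean and SD over samples with each close pair counted once. Each panel has its own scale. Ucp1 and Cidea scatter within groups, Cox8b and Fabp3 have their lowest means in the 13-month controls, and Elovl3 is well above background on 6 arrays.

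Cox8b is a subunit of cytochrome c oxidase, the last complex of the respiratory chain, in the form used by heart, skeletal muscle and brown fat. Fabp3 carries fatty acids in the cytosol of heart and muscle, and of brown fat. Both were well above background on all 49 arrays. Cox8b ranged from 3.84 to 7.85 and Fabp3 from -0.53 to 4.07, and r between them was 0.87 over the 49 arrays and 0.91 without the 3 that stood apart. The pairs did not follow each other. For Ucp1 and Fabp3 r was 0.25, for Ucp1 and Cox8b 0.25, for Cidea and Cox8b 0.21 and for Cidea and Fabp3 0.18.

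**Figure D2:**
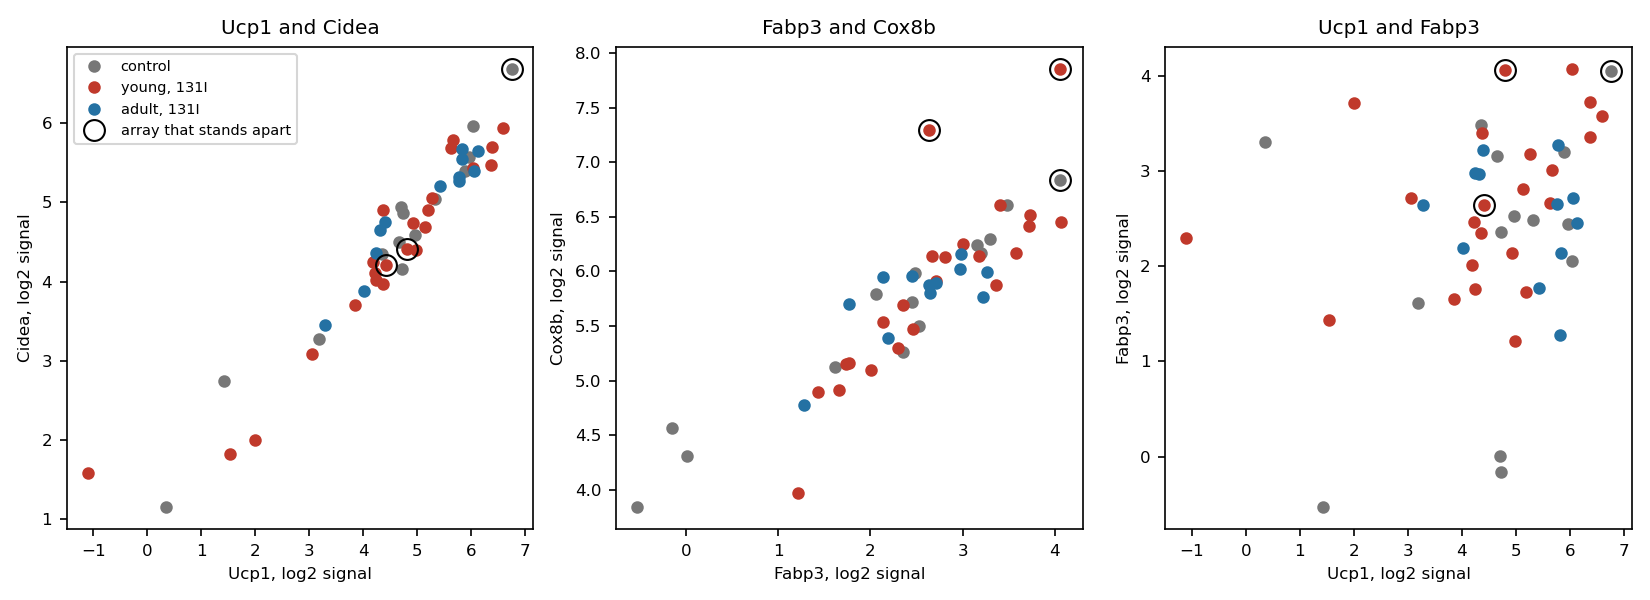
Log2 signals of pairs of members, 1 point for each of 49 arrays, with controls grey, young exposed rats red, adult exposed rats blue and the 3 arrays that stood apart circled. Ucp1 and Cidea lie along a line (r = 0.96), as do Fabp3 and Cox8b (r = 0.87), while Ucp1 and Fabp3 (r = 0.25) do not.

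Both genes had their lowest group mean in the 13-month controls. There Fabp3 read 0.01, -0.16 and -0.53, and Cox8b read 4.31, 4.57 and 3.84. In adult rats killed at the same age, 9 months after 50 kBq, Fabp3 read 2.14, 2.65, 1.28 and 3.22 and Cox8b read 5.95, 5.80, 4.78 and 5.76. The 4 exposed rats lay above every 13-month control for both genes, and 29.9% of all probes were likewise without overlap. In the 4-month controls Fabp3 read 3.30, 2.06, 1.61 and 3.49 and Cox8b read 6.30, 5.79, 5.13 and 6.61, again without overlap with the 13-month controls, as for 38.2% of all probes. Of all exposed arrays, replicate 4 at 500 kBq was lowest in both genes. It read 3.98 for Cox8b, below the 13-month readings of 4.31 and 4.57, and 1.21 for Fabp3.

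The other end of the range was the young 50 kBq group at 3 months. Cox8b read 6.45, 7.30, 7.85 and 6.61 there, against the 4-month controls above, and Fabp3 read 4.07, 2.64, 4.06 and 3.40. Replicates 2 and 3 of that group are arrays that stood apart. The difference between the means was 1.10 for Cox8b (SE 0.42, adjusted p = 0.063 by limma) and 0.93 for Fabp3 (SE 0.51, adjusted p = 0.18 by limma). Without the arrays that stood apart the group read 6.45 and 6.61 for Cox8b, and the differences were 0.58 for Cox8b (adjusted p = 0.64 by limma) and 1.12 for Fabp3 (adjusted p = 0.53 by limma). Among the remaining groups the Fabp3 mean ran from 1.95 ± 0.45 at 5 kBq (SD, n = 3) to 3.19 ± 0.85 in the 7-month controls (SD, n = 3).

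Ppargc1a, a coactivator that drives mitochondrial biogenesis in brown fat and muscle, was well above background on 48 arrays and ranged from -5.44 to -1.25. In young rats 9 months after 50 kBq it read -5.44, -3.48, -3.09 and -2.95, and its lowest reading outside that group was -3.39. Its r was between -0.06 and 0.05 with each other member. Elovl3, which lengthens saturated fatty acids and is known in brown fat for its induction in the cold, was well above background on 6 arrays, at most 1 in a group. Its highest reading, -3.71, was on the array with few spots above background, where it was not well above background itself. Every group therefore had mostly a bound for Elovl3, and no fold is given for it.

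For the order of the groups, the 12 gaps between neighbouring group means were set against the SD within groups. For Ucp1 and for Cidea 0 of 12 gaps exceeded that SD, which was 1.65 and 1.24 on the log2 scale. The Ucp1 means ran from 3.07 in the 13-month controls to 5.53 in the 10-month controls without a step. For Fabp3, with an SD of 0.73, 1 gap exceeded it, the step of 2.25 from the 13-month controls (-0.30) to the 5 kBq group (1.95). For Cox8b, with an SD of 0.60, 2 gaps did, at the 13-month controls (4.14) and at the young 50 kBq group at 3 months (7.05). Without the 3 arrays that stood apart the SD of Cox8b was 0.57 and 1 gap exceeded it, that at the 13-month controls, while the young group at 3 months (6.53) was 0.50 above the next. For Fabp3 2 gaps then exceeded an SD of 0.72, with the young group at 3 months (3.74) 0.79 above the next.

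The SD of Ucp1 within groups was larger than that of 97.5% of the 25198 probes compared, and that of Cidea larger than that of 92.4%. For Cox8b and Fabp3 these shares were 55.1% and 65.6%. Without the 3 arrays that stood apart they were 98.4% for Ucp1, 95.8% for Cidea, 70.5% for Cox8b and 81.8% for Fabp3. Differences between the 13 group means made up 23.0% of the variance of Ucp1 and 21.4% of that of Cidea, below the median of 32.1% over all probes, and 53.3% for Cox8b and 56.6% for Fabp3. Without the 3 arrays that stood apart these shares of the variance were 22.5%, 21.4%, 43.6% and 57.2%, with a median of 35.8%.

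Each exposed group was compared with controls of the same age with limma, and a probe was called at an adjusted p below 0.01 with a fold above 1.5. None of the 6 measured members was called in any of the 9 comparisons. The share of all 25304 tested probes that was called was 0.0119% at 5 kBq and at 50 kBq in young rats after 9 months and 0% in the other 7 comparisons. Of the 54 pairs of member and comparison, 5 had an unadjusted limma p under 0.05. Of these, 2 were in young rats 3 months after 50 kBq, where 36.7% of all probes had such a p, 2 in adult rats after 9 months (14.8%) and 1 in young rats 9 months after 50 kBq (1.35%). Exposed means were lower in 37 of the 54, and comparisons with the same control group share its samples. Without the 3 arrays that stood apart, Fabp3 was called in adult rats after 9 months, where 2.45% of all probes were called, against 0.0237% in young rats 6 months after 50 kBq, 0.0316% in adult rats after 3 months, 0.0119% again at 5 kBq and 50 kBq after 9 months, and 0% in the others. Exposed and control samples did not overlap in 4 of the 54 pairs, namely Elovl3 in young rats 3 months after 50 kBq, Cox8b at 5 kBq, and Cox8b and Fabp3 in adult rats after 9 months. That Elovl3 pair, also among the 5 above, was well above background on 1 of 4 exposed and 0 of 4 control arrays. Over all probes the share without overlap was 1.02%, 15.4%, 4.03% and 3.07% at 0.5, 5, 50 and 500 kBq after 9 months. It was 5.25% and 8.12% in young rats 3 and 6 months after 50 kBq, and 7.58%, 6.82% and 29.9% in adult rats after 3, 6 and 9 months. By two-sided exact permutation tests, adjusted over the 54 pairs, the smallest p was 0.514, and the smallest unadjusted p that the group sizes allow is 0.0286, or 0.0667 against the 13-month controls.

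Ucp1 differed from its controls by between -1.70 and 2.38 on the log2 scale, with SE from 1.13 to 1.39. At 0.5, 5, 50 and 500 kBq the differences were -1.70, -1.11, -0.20 and -1.62. The 95% intervals were -4.00 to 0.60, -3.59 to 1.37, -2.49 to 2.10 and -3.91 to 0.68. With these group sizes a fall of several fold lay within each interval, and at 50 kBq a rise of several fold did as well. The 0.5 kBq value rested on replicate 2 (-1.10), without which the difference was -0.05. Across the 15 arrays of young rats 9 months after injection, the slope of Ucp1 per log10 step in activity was 0.12 (SE 0.43), with an interval from -0.80 to 1.03, and no member was called by slope. The share of all probes called was 0% for the slope. Within the 2 scan dates that held both groups, the 0.5 kBq difference of Ucp1 was -2.50 (3 arrays a group) and 0.70 (1 array a group).

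Adult rats 9 months after 50 kBq were compared with the 13-month controls. For Fabp3 the difference was 2.62 (SE 0.62, interval 1.36 to 3.89, adjusted p = 0.085 by limma) and for Cox8b 1.43 (SE 0.51, adjusted p = 0.19 by limma). The difference was 2.38 for Ucp1 (SE 1.39, adjusted p = 0.43 by limma) and 1.503 for Cidea (SE 1.05, adjusted p = 0.53 by limma). Both rested on replicate 3 of the 13-month controls, without which they were 0.74 and 0.42, against the averaged pair as the 1 control sample left. Exposed and control samples did not overlap for Fabp3 and Cox8b, as for 29.9% of all probes in this comparison. Whether Fabp3 was called depended on which arrays the fit held and how they were counted. With each of the 49 arrays as its own sample it was called (2.55, adjusted p = 0.0076 by limma, 137 probes called). It was also called without the 3 arrays that stood apart (adjusted p = 0.0069 by limma, 2.45% of probes called). None of those 3 is in either group, and the difference was again 2.62 (SE 0.61). On the scan date that held both groups, with 2 arrays each, the difference was 1.97.

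Skeletal muscle genes were measured on the same arrays. The mean log2 signal of 20 muscle genes was 2.11 to 3.51 in the 13-month controls and 6.01, 6.29, -2.45 and 6.33 in the 4 exposed rats. At least 19 of the 20 muscle genes were well above background on each of these arrays. On the exposed array at -2.45, the lowest of all 49, Fabp3 read 1.28 and Cox8b 4.78. On replicate 4 at 500 kBq, with a muscle mean of 3.25, Fabp3 read 1.21 and Cox8b 3.98. The part of muscle in the difference was not tested. The mean of the thyrocyte genes was 1.90 to 2.11 in the controls and 0.91 to 1.48 in the exposed rats.

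Among the untreated groups of different age, the 13-month controls were compared with the 4-month controls. The difference was -2.92 for Fabp3 (SE 0.62, adjusted p = 0.017 by limma) and -1.81 for Cox8b (SE 0.51, adjusted p = 0.039 by limma). Neither passed the threshold, and 0.0158% of all probes were called. With each array as its own sample both were called (adjusted p = 0.0016 and 0.0086 by limma, 1278 probes called). Both were also called without the 3 arrays that stood apart (adjusted p = 0.0016 and 0.0081 by limma, 9.98% of probes called). Those 3 arrays are in neither group, and the differences were again -2.92 and -1.81. Within the scan dates that held both groups Fabp3 differed by -2.94 and -2.71 and Cox8b by -1.97 and -1.30. Muscle genes read 4.98 to 6.51 in the 4-month controls. Ucp1 differed by -0.41 (SE 1.39) and Cidea by 0.13 (SE 1.05), and without replicate 3 of the 13-month controls by 1.24 and 1.21. Leaving it out left the averaged pair as the 1 sample of that group.

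Controls of 7 and 10 months had Ucp1 means 1.90 (SE 1.22, or 1.21 above without the 3 arrays) and 2.05 (SE 1.13) above the 4-month controls, and neither passed the test (adjusted p = 0.87 and 1 by limma, with 0.00395% and 0% of probes called, or 0.0277% and 0.0119% without the 3 arrays that stood apart). Differences between the 50 kBq effects at different times or at different ages of injection were tested directly in 7 comparisons of 6 members each. None was called, and 12 of 42 had an unadjusted limma p under 0.05. They came from the young effects at 6 against 3 months (3 members, with 28.5% of all probes at such a p) and 9 against 3 months (2 members, 16.2%), the adult effect at 9 against 3 months (2 members, 11.2%), and young against adult rats at 3 months (3 members, 28.3%) and 9 months (2 members, 8.81%). By the threshold 0% of all probes were called in each, or up to 0.0079% without the 3 arrays that stood apart. Elovl3, which had mostly a bound, was among the members counted for both young effects and for young against adult rats at 3 months. Among members other than Elovl3 the smallest adjusted p by limma was 0.115, for Cox8b in the young rats at 6 against 3 months, where both arrays low in thyrocyte genes enter. That difference was -1.53, and -0.65 without the 3 arrays (adjusted p = 0.93 by limma).

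**Figure D3:**
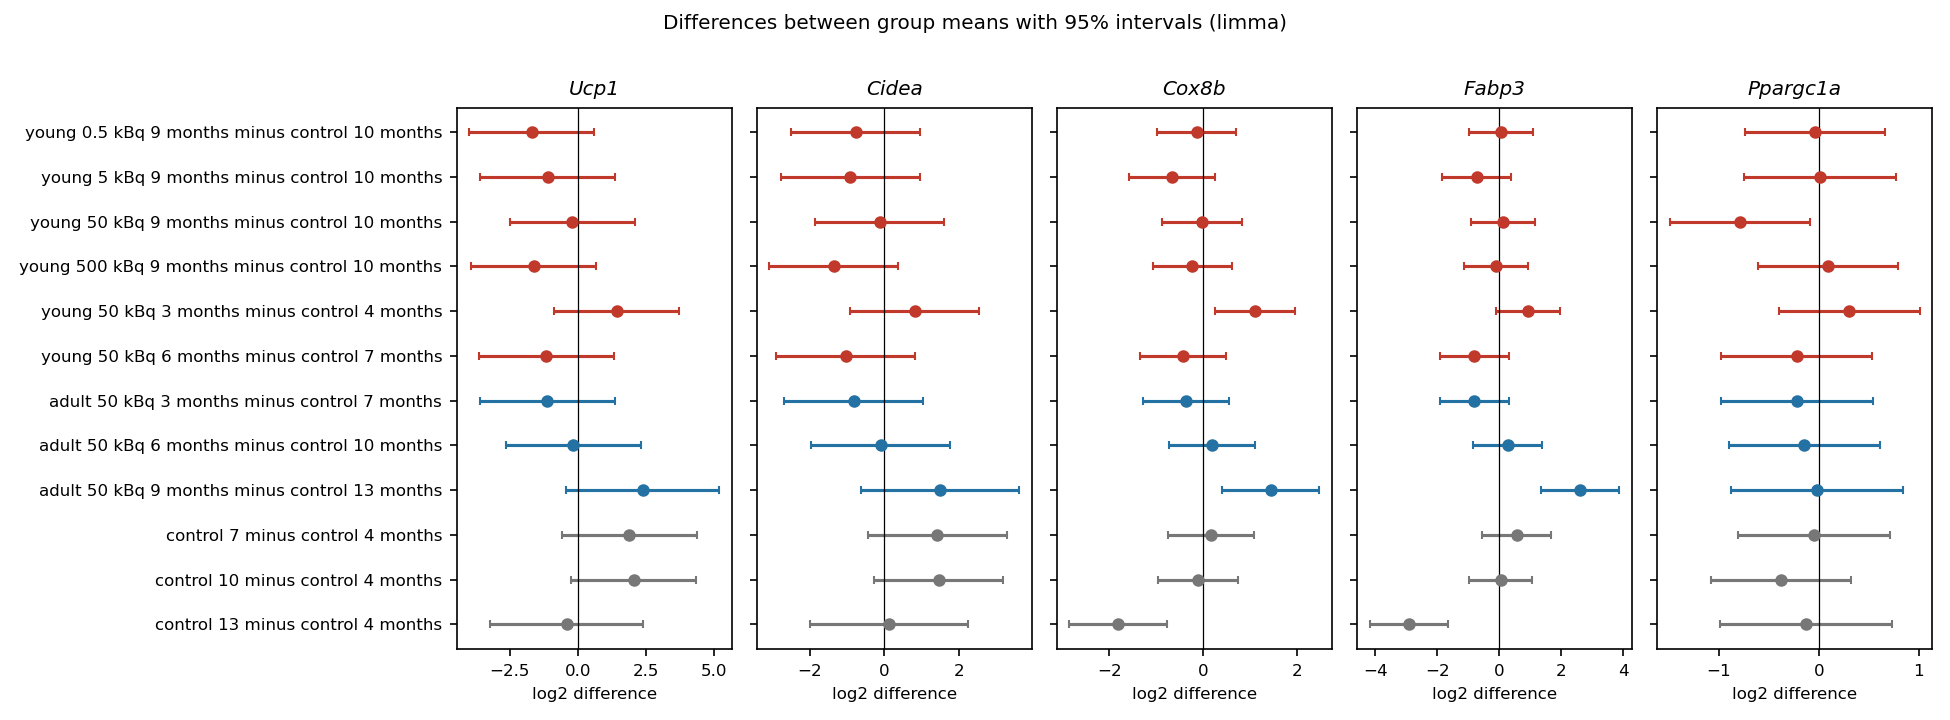
Log2 difference of group means with its 95% interval from limma for 5 members, in 9 comparisons of exposed rats with controls of the same age (red young, blue adult) and 3 comparisons of untreated groups (grey). Each panel has its own scale. Intervals of Ucp1 are the widest and cross 0 throughout, and those of Fabp3 clear 0 in both comparisons with the 13-month controls.

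To see what the members follow, each was correlated over the 49 arrays with lists of known genes. The lists too were chosen when earlier results of these data were known. A list of 28 other genes known from brown fat had 25 measured. Of these, 18 had r above 0.5 with Ucp1 and 10 with Cox8b, with 6 genes in both counts and 3 in neither. Without the 3 arrays that stood apart these counts were 19, 9, 7 and 4, and the genes above 0.5 with Cox8b alone went from 4 to 2, Esrra and Zic1. Over all probes, r above 0.5 was reached by 601 of 25190 with Ucp1 and by 4446 with Cox8b. Among the 4 brightest of the list, Cpt1b passed 0.5 with both Ucp1 and Cox8b, and the others with only 1 of them. Letmd1, a mitochondrial protein needed for heat production, had r = 0.88 with Ucp1 and 0.14 with Cox8b, and Gpd2, the mitochondrial glycerol phosphate dehydrogenase, 0.62 and -0.15. Esrra, a nuclear receptor for oxidative genes, had 0.32 and 0.92. Cpt1b, which brings fatty acids into mitochondria in muscle and brown fat, had 0.54 and 0.74.

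In the same list Adrb3, the adrenergic receptor that starts lipolysis in fat, had r = 0.88 with Ucp1, and Dio2, which activates thyroid hormone, had 0.79. Zic1, a transcription factor of classical brown fat that was well above background on 28 arrays, had 0.09 with Ucp1 and 0.74 with Cox8b. The 3 genes with r at or below 0.5 for both were Mpzl2, Fgf21 and Esrrg. By limma 0 of the 25 genes were called in each of the 9 comparisons with controls, and at most 7 had an unadjusted p under 0.05. These 7 were reached in young rats 3 months after 50 kBq and in adult rats after 9 months, where 36.7% and 14.8% of all probes had such a p. Across these comparisons the median log2 difference of the 25 genes ran from -0.66 at 5 kBq to 0.85 in adult rats 9 months after 50 kBq. Over all probes it was -0.02 and -0.12 there. It was -0.57 at 500 kBq and 0.56 in young rats 3 months after 50 kBq. The mean of the 25 genes was -1.93, -1.74 and -2.66 in the 13-month controls, and -1.12, -1.50, -1.21 and -1.70 in the adult rats after 9 months.

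Genes shared by white and brown adipocytes followed the first pair. Of 20 such genes 17 were measured, and 16 of the 17 had r above 0.5 with Ucp1, all but leptin (Lep, 0.38). Fasn, the fatty acid synthase, had r = 0.83, Gpd1 0.71, the secreted protease Cfd 0.74 and Thrsp, a regulator of lipid synthesis, 0.81. The hormone adiponectin (Adipoq) had 0.86. The mean of the 17 genes ranged from -0.26 to 3.02 and had r = 0.88 with Ucp1 and 0.93 with Cidea, against 0.25 with Cox8b and 0.28 with Fabp3. By limma 0 of the 17 genes were called in the comparisons with controls, and at most 4 had an unadjusted p under 0.05. These 4 were in adult rats after 9 months, where 14.8% of all probes had such a p. The median log2 difference of the 17 genes ran from -0.86 at 500 kBq to 1.08 in adult rats after 9 months, against 0.07 and -0.12 over all probes. It was -0.61, -0.81 and -0.21 at 0.5, 5 and 50 kBq, and 0.27 in young rats 3 months after 50 kBq. The mean of the 17 genes was 1.85, 1.95 and -0.095 in the 13-month controls, and 1.84 to 2.45 in the adult rats after 9 months. At 10 against 4 months in untreated rats, 8 of the 17 had an unadjusted limma p under 0.05 (3.51% of all probes). All 17 were higher at 10 months, with a median difference of 1.15 against -0.03 over all probes, and 0 were called.

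Muscle genes followed the second pair. Of 22 muscle genes 20 were measured, and all 20 had r above 0.5 with Cox8b and 16 with Fabp3, while 0 of 20 reached it with Ucp1. Over all probes 17.7%, 14.6% and 2.39% did. Without the 3 arrays that stood apart, r with Cox8b fell to 0.445 for Myh1, 0.463 for Atp2a1 and 0.5 for Tnnc2 of this list. The mean of the list had r = 0.71 with Cox8b, 0.70 with Fabp3 and 0.03 with Ucp1. Fast troponins Tnnc2 and Tnni2, creatine kinase Ckm and the sarcomere protein Actn3, the brightest of the list, had r of 0.45, 0.50, 0.57 and 0.56 with Fabp3, and slow troponin Tnnc1 had 0.82. Without the 13-month controls and the array lowest in muscle genes, r with the list mean was 0.85 for Cox8b and 0.69 for Fabp3 over 45 arrays. By limma 0 of the 20 muscle genes and 0 of the 13 thyrocyte genes were called in the comparisons with controls. At most 3 muscle genes had an unadjusted p under 0.05, in adult rats after 9 months, where 14.8% of all probes did. Of the thyrocyte genes at most 6 did, in young rats 6 months after 50 kBq (6.3% of all probes). Their median difference there was 2.26, and -0.385 without the 3 arrays that stood apart, 1 of them a control in that comparison. Tg, Foxe1 and Hhex were among the 4 brightest thyrocyte genes. The mean of the thyrocyte list had r = -0.62 with Cox8b and -0.57 with Fabp3. At 13 against 4 months in untreated rats, 12 of the 20 muscle genes had an unadjusted limma p under 0.05 (25.7% of all probes). There 0 of the 20 were higher at 13 months, with a median difference of -2.91 against 0.17 over all probes, and 0 were called.

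**Figure D4:**
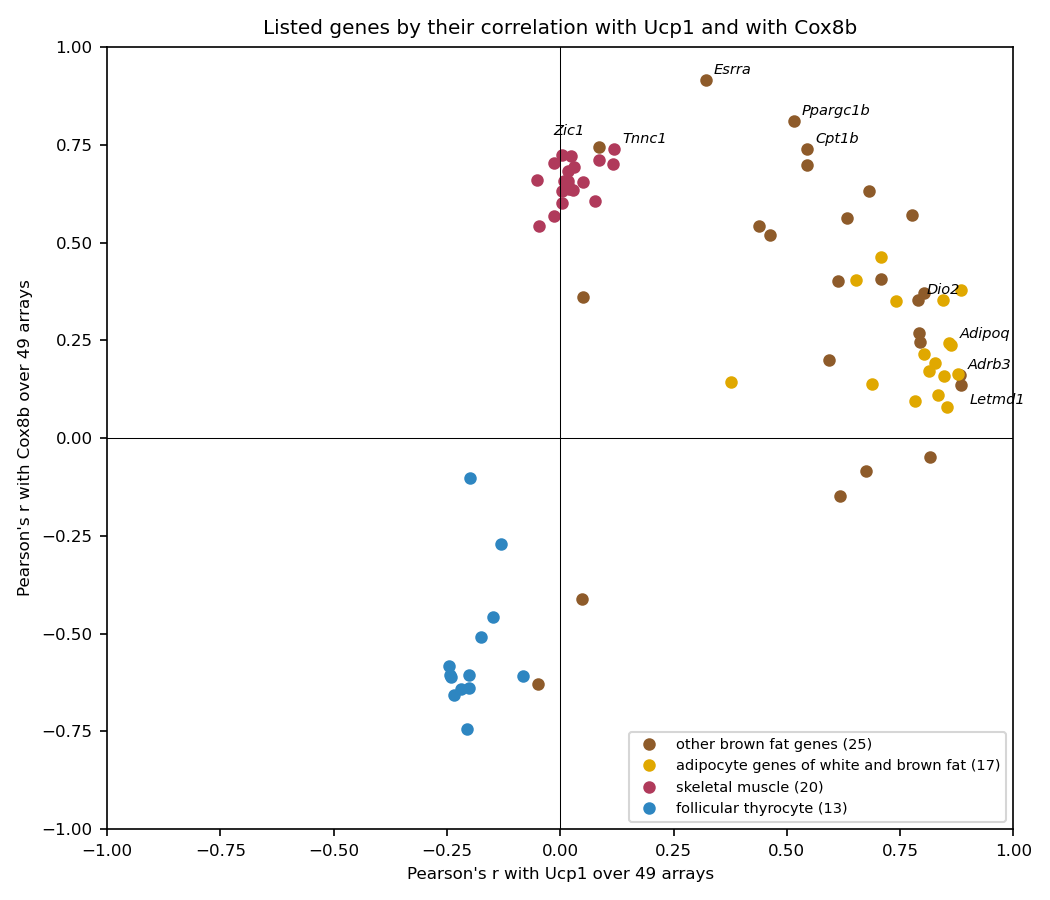
Pearson's r over 49 arrays of each measured gene of 4 lists with Ucp1 (horizontal) and with Cox8b (vertical), 1 point a gene. Adipocyte genes lie to the right, muscle genes at the top near 0 for Ucp1, thyrocyte genes below 0 for both, and of 25 other brown fat genes 12 pass 0.5 with Ucp1 alone and 4 with Cox8b alone (12 and 2 without the 3 arrays that stood apart).

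**Figure D5:**
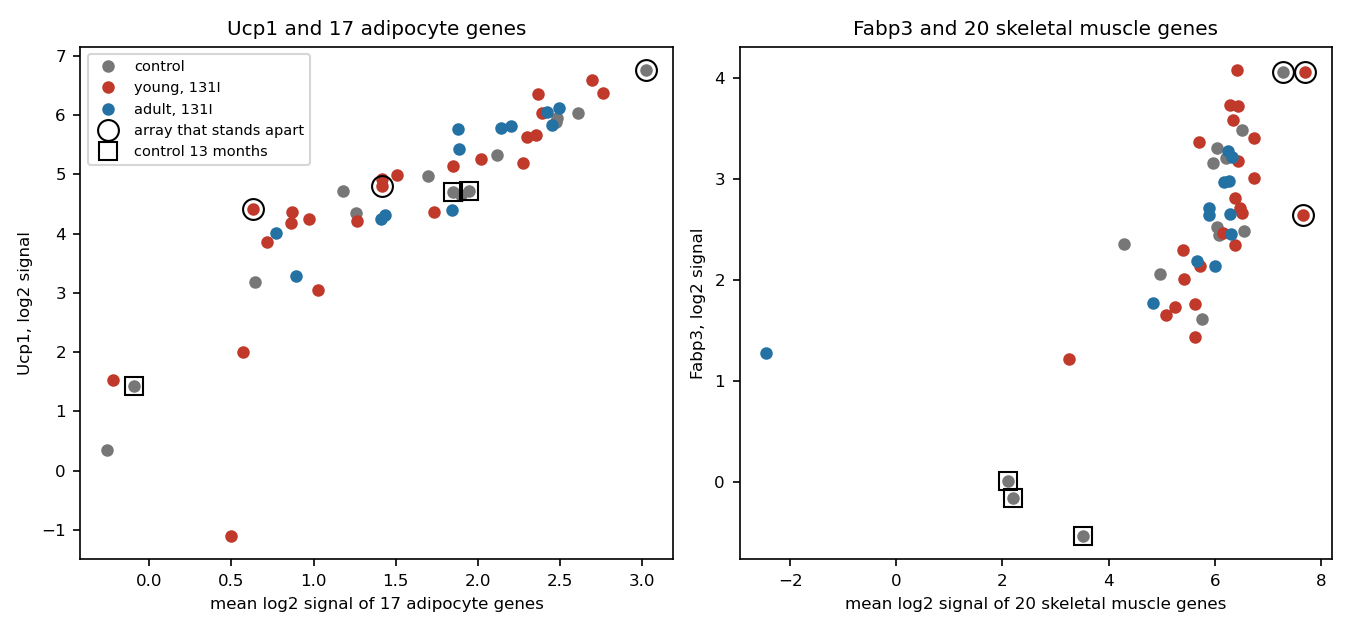
Left, Ucp1 against the mean of 17 adipocyte genes, and right, Fabp3 against the mean of 20 skeletal muscle genes, all as log2 signal, 1 point for each of 49 arrays. Circles mark the 3 arrays that stood apart and squares the 13-month controls, which are lowest in Fabp3 at muscle means of 2.11 to 3.51, above the single array at -2.45.

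The genes most like each member were taken from all probes. For Ucp1 the 10 highest were albumin (Alb, r = 0.90), Mst1, the glycogen synthase Gys2 and the peroxisomal protein Pex6 (all 0.90), the lipase Pnpla2 (0.89), Letmd1 (0.88), Adrb3 (0.88), the adipogenic receptor Pparg (0.88), the kinase subunit Prkar2b (0.87) and the thiolase Acaa2 (0.87), each well above background on all 49 arrays. Without the 3 arrays that stood apart their r lay between 0.87 and 0.93. Those closest to Cidea were Mst1 (0.94), Gys2 (0.94) and Pex6 (0.93), all 3 from the list of Ucp1.

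For Cox8b the closest were cytochrome c (Cycs, 0.97), the carnitine acetyltransferase Crat (0.97) and Ndufs3 of respiratory complex I (0.96). For Fabp3 they were the malate dehydrogenase Mdh2 (0.94), the mitochondrial thioredoxin Txn2 (0.93) and Cox6b1, another oxidase subunit (0.93). For Ppargc1a the highest were Erg (0.82), Abcc9 (0.77) and Hmgb1 (0.76), whose rank correlations were 0.43, 0.38 and 0.26. For Elovl3 they were Spata19, Pcdh8 and Thoc2 (0.85 to 0.86, and 0.67 to 0.68 without the 3 arrays), which were above background on at most 10 arrays.

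Relatives of the members were measured as well. Ucp3, the uncoupling protein of skeletal muscle, had r = 0.15 with Ucp1 and 0.79 with Cox8b, and Ucp2, which many cell types express, had -0.40 with Ucp1. Cox8a, the common form of the subunit that Cox8b encodes, had r = -0.28 with Cox8b and 0.62 with Ucp1. Of the relatives of Cox7a1, which had no probe, Cox7a2 had r = 0.70 with Cox8b and 0.67 with Fabp3, and Cox7a2l had 0.51 and 0.145. Without the 3 arrays that stood apart these were 0.82 and 0.67 for Cox7a2, and 0.17 and -0.05 for Cox7a2l. The adipocyte binding protein Fabp4 had 0.25 with Fabp3 and 0.85 with Ucp1, and Cidec, the relative of Cidea in white and brown fat, had 0.85 with Cidea. Ppargc1b, the relative of Ppargc1a, had 0.08 with it and 0.81 with Cox8b. Of the 16 relatives 14 were measured, and by limma 0 were called in the comparisons with controls. At most 4 had an unadjusted p under 0.05, in adult rats 9 months after 50 kBq, where 14.8% of all probes did.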

How the data were processed

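Total RNA of 49 samples labelled as thyroid was marked with Cy3 and hybridised to Agilent rat arrays. The authors deposited 1 Feature Extraction file per array, whose processed signal is an intensity after background subtraction, not scaled between arrays, with other marks of 0 or 1 for spots well above background, saturated or outlying. A deposited table of fold changes made by the authors was not used. The number of arrays limits the precision.

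Control and outlier spots were dropped from 62976 spots, log2 signals were reduced by each array's 75th percentile, and spots of a probe were averaged. RefSeq accessions gave symbols to 17998 of 30367 probes, and the brightest probe stood for a gene. The 25304 probes well above background on at least 3 arrays entered limma 3.58.1 (R 4.3.3), with 1 mean per group and Benjamini-Hochberg adjustment over all probes. The study's cut-offs were used, and its test is not named in the sources used here. The labels do not say that a shared replicate number marks a shared batch.

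The close pairs had an SD of their difference of 0.282 and 0.453 over 500 variable probes, and the next pair 0.997. Averaging them was decided after the calls of the fit of 49 arrays had been seen. The members and lists were chosen with earlier results of these data known. The named genes were the members, the 10 genes most like Ucp1, the 3 most like each other measured member and the 4 brightest of each list, and further genes of the lists were picked after their values were seen. A gene that the rule names is not reported here. Alternatives were another normalization, background correction or filter, array weights, a block for the slide, the scan or the replicate number, other sets of samples and each sample left out. The fit was tested on simulated data. Tables were made with pandas 2.3.3 in Python 3.11.15, permutation tests with scipy 1.17.1 and plots with matplotlib 3.10.9.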

Additional observations from a re-analysis of the deposited data

Results flagged for a closer look

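In groups of 4 samples, a sample was marked when its gap to the nearest of the others exceeded Dixon's 95% critical value of 0.829 of the group's range. Of 54 sets of member and group tested, 6 were marked, and chance marks about 1 in 20. Replicate 1 of the young 50 kBq group at 6 months was low for both Ucp1 (1.53, against 4.93 to 5.27) and Cidea (1.83, against 4.69 to 5.06). Replicate 4 of the adult 50 kBq group at 9 months was low for Ucp1 (4.40, against 5.77 to 5.84), and replicate 3 of that group, the array lowest in muscle genes, for Cox8b (4.78, against 5.76 to 5.95). Replicate 1 of the 10-month controls was high for Fabp3 (3.20, against 2.45 to 2.52). Elovl3 on replicate 2 of the young 50 kBq group at 3 months (-3.71, against -7.89 to -7.64) was not well above background.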

How the results depend on the processing

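No member was called in the comparisons as reported. Among the comparisons with controls of the same age, 1 call was made at an adjusted p below 0.05. It was Elovl3 in young rats 3 months after 50 kBq, among 3576 of 25304 probes called in that comparison. Its probe was well above background there on 1 of 4 exposed and 0 of 4 control arrays. With each array as its own sample, with array weights and without the 3 arrays that stood apart, 1 call was made, that of Fabp3 in adult rats after 9 months. Leaving out 1 sample at a time gave 0 to 1 calls, the 1 being Elovl3 without replicate 1 or 4 of the young 50 kBq group at 3 months (3758 and 3192 probes called). Between untreated groups, Fabp3 and Cox8b at 13 against 4 months made 2 calls at an adjusted p below 0.05, with each array as its own sample, with the scan date as a block, with array weights and without the 3 arrays (1235, 1278, 2370, 1030 and 2525 probes called). Fabp3 alone made 1 call with the slide as a block and without the array with few spots above background (3211 and 768 probes), and leaving out 1 sample at a time gave 0 to 1 calls (Fabp3 without replicate 3 of the 4-month controls, with 86 probes). Between 50 kBq effects, array weights gave 1 call, Fabp3 in adult rats at 9 against 3 months (3.87, adjusted p = 0.0044 by limma, 146 probes called).

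Over these alternatives the Fabp3 difference of adult rats after 9 months lay between 2.30 and 2.97, with adjusted p from 0.0056 to 0.301, and that between 13-month and 4-month controls between -3.25 and -2.63, with adjusted p from 0.00093 to 0.0948. With the replicate number as a block 0 members were called, and samples with the same number had a mean correlation of -0.012 over 30 pairs (-0.518 to 0.575). Of 2786 values of single members called neither way, 147 changed sign. Over all probes 4 were called between 13-month and 4-month controls, against 1278 with each array as its own sample and 2525 without the 3 arrays, and in adult rats after 9 months 0, against 137 and 621, and 710 with array weights. The 3 arrays are in none of the groups of these comparisons, so no compared sample was lost with them. Why the counts changed was not tested.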
